A study of Mus musculus with 6 samples.

Results

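The genes described here code for enzymes, receptors and matrix proteins through which cells attach to the extracellular matrix and cut it. The 9 members are *Fbln2*, *Mmp3*, *Mmp9*, *Mmp12*, *Mmp14*, *Plau*, *Plaur*, *Spp1* and *Cd44*, of 21938 protein-coding genes in the annotation used. They were taken as typical genes that respond to the transcription factor AP-1, except that *Fbln2* was selected on its promoter peaks, which were called in proliferating libraries only. The *Fbln2* promoter values below are therefore a description without a test. For each gene, peaks were taken from the gene body and 20 kb on each side, and peaks of different libraries that overlapped were merged into regions. The 9 windows span 601 kb and hold 64 of the 119719 merged regions of the series.

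The libraries are from ATAC-seq, an assay of chromatin accessibility whose transposase places sequencing adapters into open DNA, and the cells were neural stem cells (NSCs) cultured from the subependymal zone (SEZ) of mice aged 10 weeks. All 6 libraries came from cells in which *Srr2*, an enhancer downstream of *Sox2*, had been deleted by CRISPR-Cas9 in the mouse line (*Srr2* del/del). The proliferating group (PROLIF, replicates 1, 2 and 4) had been plated on Matrigel with FGF for 2 days in vitro, and the early differentiating group (DIFF, replicates 1, 2 and 4) had spent 1 further day without mitogens, in medium with serum. Libraries with an intact enhancer were not analysed here, and each comparison is between states of the mutant. The deletion is constitutive, 2 mouse strains were made in the study, and the labels do not say which strain gave which culture. The sample labels place the PROLIF cultures at 2 days in vitro, whereas the design text of the series gives a longer time.

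A peak is a stretch where the peak caller found more reads than in the local background, and its fold enrichment is the ratio of both in the same library. A gene or region without a peak had a signal under the caller's threshold, which does not show that the chromatin was closed. In these bulk cultures, fewer cells with an open site and less opening per cell cannot be told apart. Because libraries differ in depth, peaks were also placed by percentile, the rank of a peak by its −log10 p within its own list, where 100% is the strongest. The lists held between 60006 and 88039 peaks, and the background from which a peak had to rise ranged from 2.85 to 6.01 reads, with the highest background in DIFF replicate 4. All 10 listed markers of neural stem and progenitor cells, *Sox2*, *Nes* and *Vim* among them, had a promoter peak in all 6 libraries. Of 9 microglia and macrophage markers, which matter here because such cells express *Spp1*, *Plaur* and *Mmp12*, 3 or 4 had a promoter peak in each library of either state. *P2ry12* and *Csf1r* had one in all 6 libraries, *Tmem119* in 3 PROLIF and 2 DIFF and *Aif1* in 2 PROLIF and 3 DIFF libraries, whereas *Cx3cr1*, *Ptprc*, *Itgam*, *Spi1* and *Fcer1g* had none in any library. The part of such cells in the results was not tested. Of the 5 endothelial markers 2 had a promoter peak in every library, and of the 5 fibroblast and pericyte markers 1 or 2 had one in each library. Of the 4 neuron markers, *Tubb3* and *Syt1* had a promoter peak in all 6 libraries, *Rbfox3* in 2 PROLIF and 3 DIFF libraries and *Dcx* in none.

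Matrix metalloproteinases are zinc enzymes that cleave matrix proteins and release growth factors held in the matrix. Urokinase (*Plau*) bound to its receptor (*Plaur*) turns plasminogen into plasmin at the cell surface, and plasmin cleaves matrix and activates several metalloproteinases. CD44 binds hyaluronan and osteopontin (*Spp1*), and fibulin-2 (*Fbln2*) is a secreted glycoprotein that links elastic fibres and basement membranes. AP-1, a dimer of FOS and JUN proteins induced by growth factor signalling, binds TGACTCA, whose reverse complement is TGAGTCA, and several of these promoters are textbook AP-1 targets.

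Around the 9 genes, 20 of the 64 regions had a peak in all 6 libraries (31.2%, against 33.5% of all merged regions). In 3 regions a peak was found in every PROLIF library and in no DIFF library (PROLIF-only, 4.69%, against 1.79% of all regions), and 2 of these lay in the *Fbln2* window and 1 at *Spp1*. The reverse pattern (DIFF-only) occurred in 1 region, also at *Fbln2* (1.56%, against 3.48% of all regions). Outside the *Fbln2* window, which the selection favoured, 1 of 47 regions was PROLIF-only (2.13%) and 0 were DIFF-only, so the share of state-only regions there was close to or under that of the genome. A further 19 regions were called in 1 library (29.7%, against 29.6% of all regions). Of these, 14 were in PROLIF replicate 1 or DIFF replicate 4, the libraries with the longest lists. Over the whole series, 10076 and 10697 of 35449 single-library regions were in PROLIF replicate 1 and DIFF replicate 4. The other 21 member regions had peaks in several libraries without separating the states, with more PROLIF libraries in 6, more DIFF libraries in 11 and as many of each in 4. The number of PROLIF-only regions was 5 without DIFF replicate 4, and the number of DIFF-only regions was 3 without PROLIF replicate 1, 2 without DIFF replicate 1 and 4 without DIFF replicate 2. When a peak had to cover at least 50% of a merged region to count, 3 of the 4 state-only regions lost that pattern, and the *Fbln2* upstream region kept it.

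**Figure D1:**
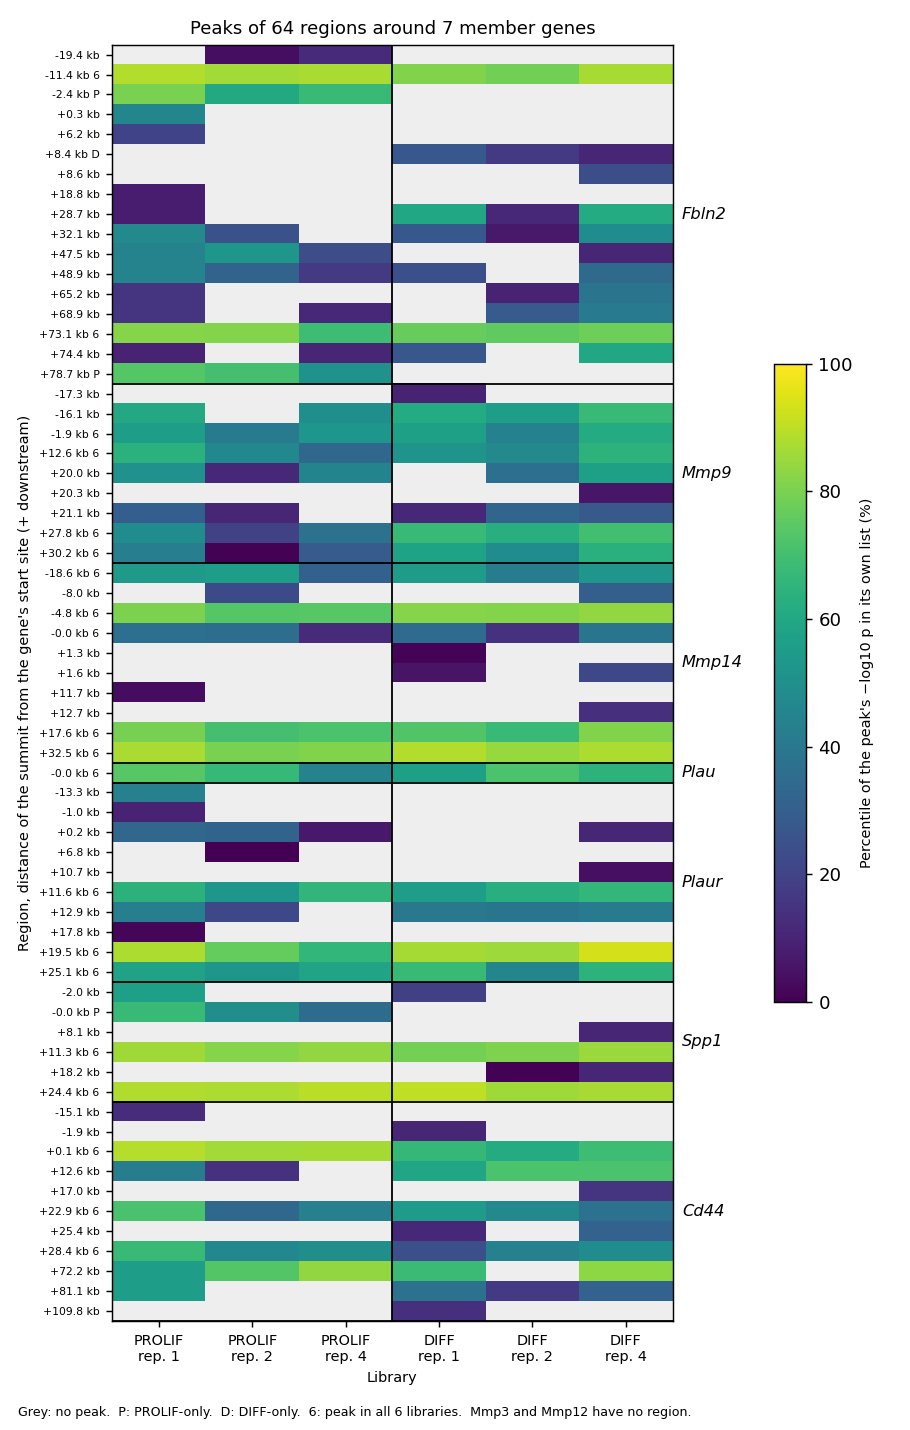
Each row is 1 of the 64 merged regions, ordered by gene and by distance from the start site, and each column is a library. Colour gives the percentile of the peak within its own list and grey means no peak. Of the rows, 20 are filled in all 6 columns, 3 are filled only in the PROLIF columns and 1 only in the DIFF columns.

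*Fbln2* (ENSMUSG00000064080.12, GRCm38 chr6:91212455-91272540, plus strand) had the largest number of regions of the 9 genes, 17, and more per kb of window than 95.7% of coding genes. The region that counted as its promoter peak had its summit 2419 bp upstream of the annotated start site, within an exon of the provisional transcript model 4930402H05Rik. Its fold enrichment was 9.32, 7.03 and 7.12 in PROLIF replicates 1, 2 and 4, at percentiles 79.9, 60.9 and 67.5, and no DIFF library had a peak there. The PROLIF peaks were thus of middle to high rank in their lists. A promoter peak in PROLIF libraries only was found for 0.228% of coding genes, which is the pattern the selection used. At the start site itself, 338 bp into the gene and within its 5′ UTR, a peak was called in PROLIF replicate 1 alone, with a fold of 4.32.

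The second PROLIF-only region of *Fbln2*, chr6:91290887-91291428, lay 78675 bp downstream of the start site, past the end of the gene. Fold enrichment there was 8.96, 7.71 and 5.14 in PROLIF replicates 1, 2 and 4, at percentiles 73.8, 70.6 and 51.3. The DIFF-only region, chr6:91220631-91220940, lay in an intron 8427 bp downstream of the start site, with folds of 3.77, 3.79 and 2.71 in DIFF replicates 1, 2 and 4. Its percentiles of 27.1, 16.9 and 10.7 were far below those of both PROLIF-only regions, so it was a weak peak in every library that called it. The sequences around the summits of the downstream and the intronic region (plus strand of GRCm38, in lower case because neither holds an AP-1 site) are shown because their occupancy followed the state.
Fbln2 downstream PROLIF-only region, chr6:91291080-91291180: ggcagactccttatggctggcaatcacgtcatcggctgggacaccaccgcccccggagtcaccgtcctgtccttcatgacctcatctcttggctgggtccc
Fbln2 intronic DIFF-only region, chr6:91220832-91220932: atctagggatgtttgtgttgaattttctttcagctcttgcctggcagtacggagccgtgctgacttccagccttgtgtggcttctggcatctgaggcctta

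The other *Fbln2* regions did not all lean to the PROLIF state. The strongest, chr6:91200458-91201291 at 11409 bp upstream, had a peak in all 6 libraries, with folds of 12.6, 10.3 and 10.2 in PROLIF and 8.52, 9.94 and 10.5 in DIFF, which overlapped. A region 73106 bp downstream of the start site was also called in all 6, with percentiles from 68.8 to 81.7. In the intron at 28701 bp, the fold was 5.88, 3.54 and 5.70 in the DIFF libraries and 3.27 in PROLIF replicate 1, with no peak in PROLIF replicates 2 and 4. The reverse was seen 47536 bp into the gene, where folds were 5.54, 6.21 and 3.84 in PROLIF and 2.71 in DIFF replicate 4 alone, the library with the highest background. Over the window, PROLIF replicates 1, 2 and 4 had 14, 8 and 9 peaks and DIFF replicates 1, 2 and 4 had 8, 7 and 12, so the states overlapped in number although single regions separated them.

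The coding genes whose promoter pattern was nearest to that of *Fbln2* were sought by the Euclidean distance between promoter percentiles over the 6 libraries, with 0 where no peak was called. They were *Klrb1a* at a distance of 3.90, with percentiles of 77.1, 59.8 and 65.0 in PROLIF and no DIFF peak, *Pla2g3* at 8.16, which also had a weak peak at percentile 4.14 in DIFF replicate 4, and *Klrb1c* at 14.7. *Klrb1a* and *Klrb1c* are natural killer cell receptor genes of the same family, and *Pla2g3* codes for a secreted phospholipase.

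**Figure D2:**
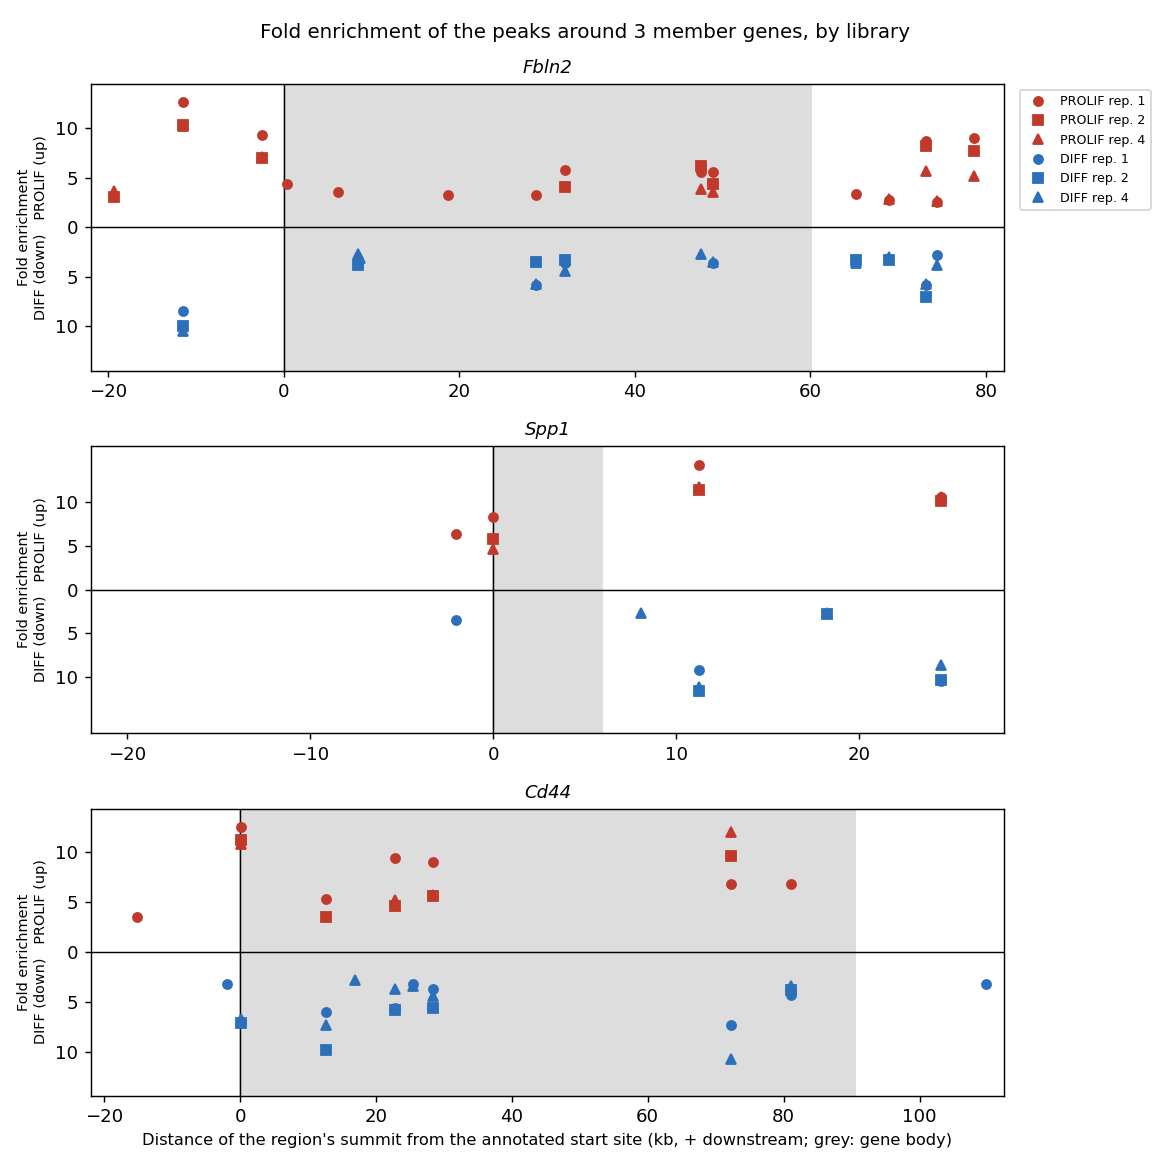
Fold enrichment of each peak (vertical axis, PROLIF upward and DIFF downward) against the distance of its region from the start site in kb, for *Fbln2*, *Spp1* and *Cd44*; the gene body is grey and each marker is 1 library. At *Fbln2* the regions 2419 bp upstream and 78675 bp downstream carry PROLIF markers only, at *Spp1* the same holds at the start site, and at *Cd44* the start site is marked in both states with higher folds in PROLIF.

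*Spp1* codes for osteopontin, a secreted phosphoprotein that binds integrins and CD44 (ENSMUSG00000029304.14, GRCm38 chr5:104435118-104441050, plus strand). Among the 8 members not chosen for a promoter pattern it was the one with a PROLIF-only region, chr5:104434779-104435439, whose summit was 38 bp upstream of the start site. Fold enrichment was 8.29, 5.84 and 4.68 in PROLIF replicates 1, 2 and 4, at percentiles 67.5, 49.4 and 35.4, and no DIFF library had a peak in it. With 50% cover of the region required, it was no longer PROLIF-only. A separate region 2034 bp upstream had a peak in PROLIF replicate 1, with a fold of 6.40, and in DIFF replicate 1, with a fold of 3.45. Within 3 kb of the start site, *Spp1* thus had a promoter peak in 3 PROLIF libraries and 1 DIFF library, whereas the peak over the start site itself separated the states. The distal regions did not follow the start site. One at 11268 bp downstream of it was called in all 6 libraries, with folds of 14.3, 11.4 and 11.8 in PROLIF and 9.20, 11.6 and 11.2 in DIFF. Another at 24436 bp lay over the start of the neighbouring gene *Pkd2* and was also called in all 6. The bases around the summit of the *Spp1* start-site region (plus strand, GRCm38) hold no AP-1 site and end 13 bases into the transcript.
Spp1 start-site PROLIF-only region, chr5:104435030-104435130: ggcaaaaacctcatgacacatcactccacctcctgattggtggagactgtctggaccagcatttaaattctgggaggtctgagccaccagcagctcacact

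*Cd44* codes for the main hyaluronan receptor (ENSMUSG00000005087.17, GRCm38 chr2:102811141-102901665, minus strand) and was, of the 4 members with a promoter peak in all 6 libraries, the one whose states did not overlap. Its start-site region, chr2:102900877-102901975, had folds of 12.5, 11.2 and 10.8 in PROLIF replicates 1, 2 and 4 and of 7.05, 7.13 and 6.67 in DIFF replicates 1, 2 and 4. The percentiles were 88.7, 86.3 and 86.6 in PROLIF and 66.5, 61.5 and 69.0 in DIFF, so every PROLIF library lay above every DIFF library. The mean percentile was 87.2 ± 1.31 (SD, n = 3) in PROLIF and 65.7 ± 3.80 (SD, n = 3) in DIFF, a difference of 21.5 points. The two-sided exact permutation test over libraries gave p = 0.1, the smallest that 3 against 3 libraries allow, and adjusted over the 14126 coding genes with a promoter peak in all 6 libraries p was 0.325 (Benjamini-Hochberg, exact permutation). The difference was larger than that of 99.3% of these genes, whose median was -2.28 points. Ranked among all regions found in all 6 libraries, promoter or not, it was larger than that of 94.6%. Percentiles were higher in every PROLIF library for 4.79% of the 14126 genes and higher in every DIFF library for 26.0%, and of the 4 members with a promoter peak in all 6 libraries 1 was of the first kind and 0 of the second.

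Inside *Cd44* the regions differed in direction. In the intron 12596 bp from the start site, the percentile was 58.9, 71.6 and 71.5 in DIFF replicates 1, 2 and 4, and 41.8 and 14.3 in PROLIF replicates 1 and 2, with no peak in PROLIF replicate 4. An intronic region at 72249 bp had percentiles of 55.6, 73.1 and 83.6 in PROLIF and of 68.1 and 83.0 in DIFF replicates 1 and 4, without a peak in DIFF replicate 2. A further intronic region at 28363 bp, found in all 6 libraries, had a mean percentile of 54.8 ± 11.4 (SD, n = 3) in PROLIF and 39.1 ± 13.0 (SD, n = 3) in DIFF, and these overlapped. The higher PROLIF signal at *Cd44* therefore concerned the start site, while the intronic regions were mixed.

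**Figure D3:**
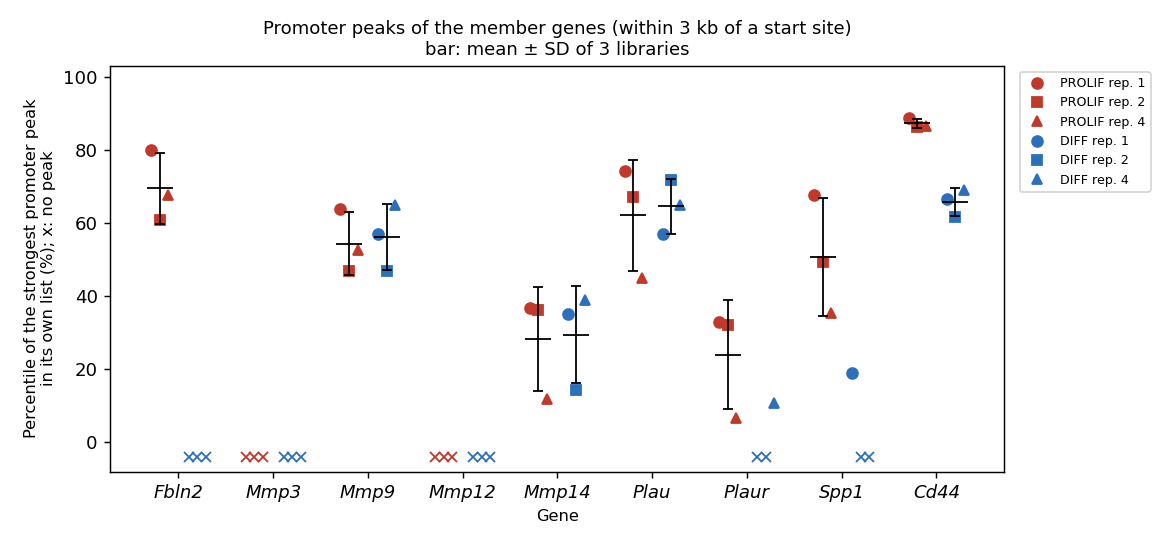
The percentile of the strongest promoter peak (vertical axis, in percent of the own list) for each gene and library, with PROLIF in red and DIFF in blue, crosses where no peak was called, and the mean ± SD where all 3 libraries of a state had one. The *Cd44* markers do not overlap between states, those of *Mmp9*, *Mmp14* and *Plau* do, and *Mmp3* and *Mmp12* have crosses only.

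Of the urokinase pair, *Plau* (ENSMUSG00000021822.3, GRCm38 chr14:20836660-20843385, plus strand) had a single region in its window, over its start site, and it was called in all 6 libraries. Its folds were 10.7, 8.37 and 5.22 in PROLIF replicates 1, 2 and 4 and 5.83, 9.86 and 6.13 in DIFF replicates 1, 2 and 4. The mean percentile was 62.0 ± 15.2 (SD, n = 3) in PROLIF and 64.5 ± 7.42 (SD, n = 3) in DIFF, a difference well within the spread between libraries (two-sided exact permutation p = 0.900).

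*Plaur*, the urokinase receptor (ENSMUSG00000046223.10, GRCm38 chr7:24462484-24475968, plus strand), had weaker signal at its start. The region chr7:24462405-24463026, with its summit 185 bp downstream of the start site, had folds of 4.38, 4.38 and 3.24 in PROLIF and of 2.71 in DIFF replicate 4, with no peak in DIFF replicates 1 and 2. Without DIFF replicate 4, whose background was the highest, this region was among the PROLIF-only ones, and with the lists cut to equal length it was too. An intronic region 11643 bp downstream was called in all 6 libraries, with a mean percentile of 60.8 ± 7.21 (SD, n = 3) in PROLIF and 61.8 ± 5.16 (SD, n = 3) in DIFF. The strongest region of the window lay 19498 bp downstream of the start site, within 3 kb of a start site of *Cadm4*, a neighbouring cell adhesion gene, and its percentile ranged from 66.2 to 93.7.

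Among the metalloproteinases, *Mmp14* and *Mmp9* had called regions in both states and *Mmp3* and *Mmp12* had no called region in either. *Mmp14* (ENSMUSG00000000957.11, GRCm38 chr14:54431612-54445364, plus strand) codes for a membrane-bound enzyme that activates MMP2. The region over its start site had low folds of 3.82, 3.81 and 3.09 in PROLIF and 3.32, 2.95 and 3.02 in DIFF. The mean percentile there was 28.2 ± 14.2 (SD, n = 3) and 29.5 ± 13.3 (SD, n = 3), which overlapped (two-sided exact permutation p = 0.700). A region 17608 bp downstream of the start site, beyond the end of the gene, was stronger in all 6 libraries, with percentiles from 67.3 to 80.9 and no separation of the states. Regions near start sites of *Mrpl52* and *Lrp10* had percentiles from 73.7 to 88.3, and a weaker region near a start site of *Slc7a7* had percentiles from 31.0 to 56.0.

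*Mmp9* (ENSMUSG00000017737.2, GRCm38 chr2:164940780-164955850, plus strand) codes for gelatinase B. No region covered its main start site. Peaks in all 6 libraries lay 1921 bp upstream of it, with folds of 6.80, 5.08 and 5.98 in PROLIF and 5.83, 5.56 and 5.70 in DIFF, and in the coding sequence at 12634 bp, where folds ranged from 4.55 to 8.05. The strongest promoter peak, which came from 1 or the other of these regions, had a mean percentile of 54.4 ± 8.69 (SD, n = 3) in PROLIF and 56.2 ± 8.98 (SD, n = 3) in DIFF (two-sided exact permutation p = 0.700). The *Mmp9* window also reached into *Slc12a5*, which codes for the neuronal chloride transporter KCC2. There, an intronic region 27841 bp from the *Mmp9* start site had percentiles of 48.7, 19.8 and 37.7 in PROLIF and 67.8, 62.9 and 69.9 in DIFF, and a second at 30182 bp had 42.8, 0.745 and 28.6 in PROLIF and 58.1, 48.5 and 63.4 in DIFF. Every DIFF library was above every PROLIF library at both (two-sided exact permutation p = 0.1 each, the smallest possible, and 0.305 when adjusted over all 40102 regions in all 6 libraries). A lower difference (PROLIF minus DIFF) was found for 2.57% and 2.27% of all such regions. Both *Slc12a5* regions lie within 3 kb of an annotated start site of that gene.

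*Mmp3*, stromelysin-1 (ENSMUSG00000043613.8, GRCm38 chr9:7445822-7455975), and *Mmp12*, macrophage elastase (ENSMUSG00000049723.14, GRCm38 chr9:7344381-7369499), are neighbours in the metalloproteinase cluster of chromosome 9. Neither had a peak within 20 kb in any library, which was the case for 10.2% of coding genes. The nearest region was 98497 bp from *Mmp3* and was called in all 6 libraries, and the nearest to *Mmp12* was 81592 bp away and was called in 1 PROLIF library. Both genes were thus without detectable accessibility at the depth of these libraries, in proliferation as well as after mitogen removal.

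Leaving out *Fbln2*, whose promoter pattern was fixed by the selection, 4 of the other 8 genes had a promoter peak in all 6 libraries (*Mmp9*, *Mmp14*, *Plau* and *Cd44*), compared with 64.4% of coding genes, and 2 had none in any library, compared with 25.4%. At least 1 PROLIF-only region in the window was found for 1 of these 8 genes, *Spp1*, compared with 7.33% of coding genes, and at least 1 DIFF-only region for 0 of them, compared with 15.1%. Of the 64 regions, 14 were promoter regions of the member itself, by the limit of 3 kb from a start site, and 12 were those of another coding gene. Among the 20 regions called in all 6 libraries, the percentile was higher in every PROLIF library in 1, the *Cd44* start site (11.7% of all such regions), and higher in every DIFF library in 3 (21.1% of all such regions). The 3 were both *Slc12a5* regions and a region 4761 bp upstream of *Mmp14*, next to *Mrpl52*, so all of them were near start sites of neighbouring genes. At the region next to *Mrpl52* the states separated by percentile, while its folds of 9.84, 7.40 and 7.74 in PROLIF and 8.51, 9.87 and 8.70 in DIFF overlapped. Folds also vary with the library. The median fold of a list was 5.79, 5.58 and 5.46 in PROLIF replicates 1, 2 and 4. It was 4.92, 5.81 and 4.28 in DIFF replicates 1, 2 and 4. The median difference over the 20 regions was -1.88 percentile points, against -2.26 over all regions found in all 6 libraries.

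In number of peaks the states did not separate at any of the 9 genes. PROLIF replicates 1, 2 and 4 had 47, 36 and 32 peaks in the windows and DIFF replicates 1, 2 and 4 had 41, 32 and 51, which gave 38.3 ± 7.77 (SD, n = 3) and 41.3 ± 9.50 (SD, n = 3). The difference of -3.00 became 3.33 when all lists were cut to the length of the shortest, and 2.00 with the strongest 20000 peaks of each list. Per 10000 peaks of a list, the counts were 5.49 ± 0.181 (SD, n = 3) in PROLIF and 5.37 ± 0.726 (SD, n = 3) in DIFF. More peaks in every PROLIF than in every DIFF library were found for 0 of the 9 genes (1.52% of coding genes) and the reverse for 0 (6.06%). The largest differences by gene were -2.00 peaks at *Cd44* and -1.67 at *Mmp14* (two-sided exact permutation p = 0.300 and 0.400).

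**Figure D4:**
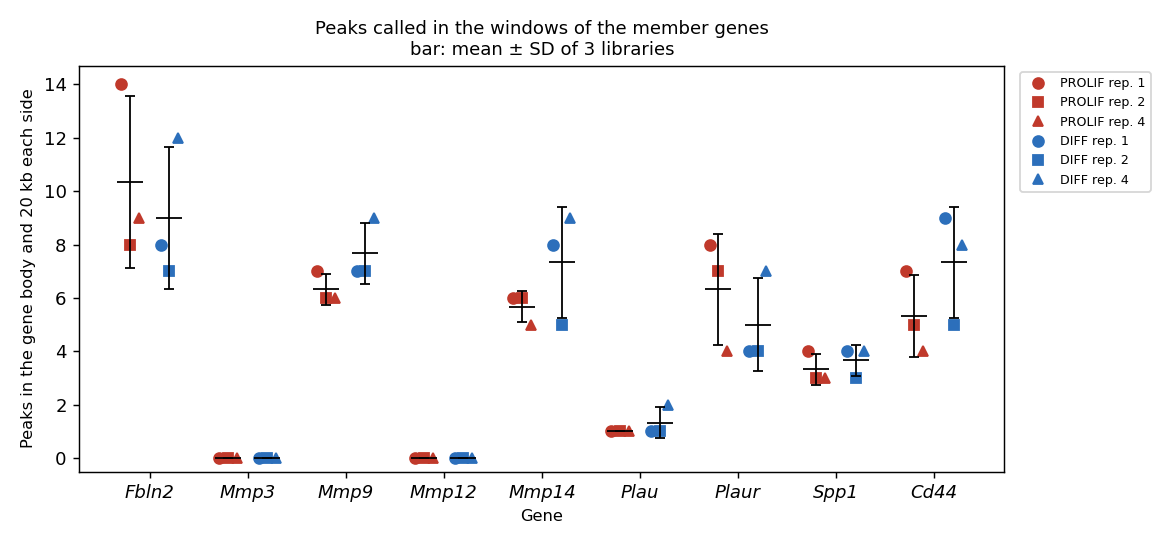
The number of peaks in the gene body and 20 kb on each side (vertical axis) for each gene and library, PROLIF in red and DIFF in blue, with the mean ± SD of 3 libraries. The states overlap at every gene, from 0 peaks in all libraries at *Mmp3* and *Mmp12* to between 7 and 14 at *Fbln2*.

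The members were grouped as AP-1 responsive genes, so the AP-1 motif was counted within 100 bp of the summit of each region's best-ranked peak. It was present in 5 of the 64 regions (7.81%), compared with 5.76% of all regions. Over the whole series the motif was found in 27.8% of PROLIF-only regions, 2.48% of DIFF-only regions and 4.55% of regions in all 6 libraries. Of the 3 PROLIF-only regions of the members it was found in 0, including the *Spp1* start site, and the DIFF-only region did not hold it either. Of the 17 *Fbln2* regions, in a window that the selection favoured, 2 held it, both called in more PROLIF than DIFF libraries. These were the intronic region at 47536 bp, with the motif 8 bases from the summit, and a weak region 19373 bp upstream, called in PROLIF replicates 2 and 4 with folds of 3.05 and 3.61. A weak *Spp1* region 18233 bp downstream of the start site also held the motif. It was called in DIFF replicates 2 and 4 alone, with folds of 2.78 and 2.71. The motif was further present in a *Cd44* intronic region of all 6 libraries and a *Mmp14* intronic region of PROLIF replicate 1 alone. Across the full length of the member regions there were 11 AP-1 sites. No such count is given over all regions, so whether 11 is many cannot be said. Of the other motifs searched, the ETS core AGGAAG was found in all 3 PROLIF-only regions, compared with 36.8% of PROLIF-only regions in the series, and this motif was chosen after its counts were seen.

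RefSeq promoter windows of GRCm38.p6, from 250 bases before to 50 after a start site, were listed for 7 of the 9 genes. None was listed for *Mmp9* and *Plau*, so no such window was searched for them. The AP-1 motif was found in those of 3, compared with 5.95% of 27025 genes, with its middle base at position -43 for *Mmp3*, -41 for *Mmp12* and -66 for *Plaur*. For *Mmp12*, 1 of its 2 listed windows held the motif. The members other than *Fbln2* were picked as typical AP-1 responsive genes, so the choice itself favoured a share above that of all genes. Among these 7 genes, the motif thus lay next to a start site of both genes without any peak and of *Plaur*. The *Plaur* start-site peak ranked lowest by percentile in each PROLIF library among those called in every PROLIF library. *Mmp9* and *Plau*, which had a promoter peak in all 6 libraries, could not be placed in this comparison of listed windows. The *Plau* region over its start site, searched along its full length, held no AP-1 site. The sites are shown with the motif in capitals (41 bases, plus strand of GRCm38). The *Fbln2* intronic site and a site in a *Cd44* intronic region called in all 6 libraries were added, to set sites without a peak beside sites in called regions. At *Plaur* the motif lay near the edge of its region and, in the full lists, more than 100 bp from the summit. The libraries named for *Plaur* had a peak in that region, and whether each peak covered the motif was not tested.
Mmp3 promoter site, no peak in any library, chr9:7445759-7445799: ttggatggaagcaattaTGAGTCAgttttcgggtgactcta
Mmp12 promoter site, no peak in any library, chr9:7347313-7347353: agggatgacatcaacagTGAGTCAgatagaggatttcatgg
Plaur start-site region, 3 PROLIF libraries and DIFF replicate 4, chr7:24462397-24462437: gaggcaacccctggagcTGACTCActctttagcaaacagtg
Fbln2 intronic site, 3 PROLIF libraries and DIFF replicate 4, chr6:91259963-91260003: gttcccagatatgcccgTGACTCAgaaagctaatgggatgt
Cd44 intronic site, all 6 libraries, chr2:102878847-102878887: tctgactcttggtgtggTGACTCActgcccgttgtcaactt

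A list of 79 other genes of the matrix and adhesion system was examined in the same way. A promoter peak in all 6 libraries was found for 68 of them (86.1%, compared with 64.4% of coding genes). There was none in any library for 6 (25.4% of coding genes). A promoter peak in all 3 libraries of a state with none in the other was found for 0. In its PROLIF-only form, that pattern was found for 0.228% of coding genes. It takes all promoter peaks of a gene together, and single regions near a start site could still be state-only. A PROLIF-only region had its summit 1163 bp from a start site of *Itga5*. DIFF-only summits lay near start sites of *Itga3* (459 and 2253 bp), *Ddr1* (554 bp), *Plgrkt* (880 bp), *Tnr* (1833 bp) and *Thbs2* (2320 bp). At least 1 PROLIF-only region lay in the windows of 14 (17.7%, compared with 7.33% of coding genes) and at least 1 DIFF-only region in those of 24 (30.4%, compared with 15.1%); these windows also held more regions, with a median of 7 against 4 for coding genes. By role, PROLIF-only regions were found for 6 of 18 adhesion receptors, 3 of 11 sheddases, which release membrane proteins by cleavage, 2 of 8 protease inhibitors, 2 of 6 fibulins and elastic fibre genes, 1 of 17 matrix glycoproteins, 0 of 14 other metalloproteinases and 0 of 5 other genes of the plasminogen system. DIFF-only regions were found for 10 adhesion receptors, 4 fibulins and elastic fibre genes, 4 matrix glycoproteins, 3 genes of the plasminogen system, 2 metalloproteinases, 1 inhibitor and 0 sheddases. The adhesion receptor genes *Itga7* and *Cd63* share a PROLIF-only region and a DIFF-only region, and both genes enter these counts.

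The strongest PROLIF-only regions in this list, by their lowest percentile over the libraries, lay 10315 bp upstream of *Itga5*, an integrin subunit of the fibronectin receptor, with folds from 6.93 to 10.7, and in the shared window of *Itga7*, a laminin receptor subunit, and *Cd63*, a tetraspanin, with folds from 3.16 to 4.05. The strongest DIFF-only regions were at *Itgav*, an integrin subunit that binds osteopontin (folds from 6.90 to 8.09), *Tnr*, the brain matrix protein tenascin-R (5.42 to 6.32), and *Sparc* (4.53 to 7.76). Of the PROLIF-only regions of these genes 4 of 17 held the AP-1 motif, and of the DIFF-only regions 1 of 32, counting a region once for each gene whose window holds it.

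The windows end 20 kb from each gene, and values on both sides of that limit were compared once. The outermost region inside the *Fbln2* window was 19265 bp from the gene, with a best percentile of 12.3, and the nearest outside was 25216 bp away, at 24.3 in 1 library. At *Plaur* a region of all 6 libraries, with a best percentile of 85.8 and in an intron of *Irgc1*, fell just outside at 20291 bp.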

How the data were processed

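The authors clipped and trimmed reads (Cutadapt, Trimmomatic), aligned them to GRCm38 (mm10) by Bowtie2, marked duplicates and called narrow peaks per library with MACS2 at a false discovery rate of 0.05, without pooling replicates. Versions, read shift, extension and any blacklist are not given in the sources used here and can move peak edges. The labels name RNA, but library source and file content are those of ATAC-seq. Each deposited list gives a score, a fold enrichment (a ratio to local background) and the −log10 of p and q. The score deposited is 10 times the −log10 q, within 1 unit, and was not used further. Values were used within a list. Peaks on assembled chromosomes were kept. Read totals were not used. The background reads of a library are percentile 1 of the local backgrounds solved from fold and p, and deeper libraries reach weaker peaks.

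Peaks overlapping by at least 1 bp were merged. Gene models were those of GENCODE M21 (same build), and promoter peaks were those overlapping 3 kb on either side of a start site. The members and all lists were chosen with earlier results of these data known. Described for each member were its promoter peak, state-only regions and strongest region. Sequences were printed for state-only regions (1 is not reported here) and for AP-1 sites, the latter chosen after the data were seen. States were compared with exact permutation tests over libraries (two-sided), adjusted (Benjamini-Hochberg) over all genes or regions of the kind tested, in place of an adjustment over the members that had been planned. The design text calls the replicates biological, so p-values cover the spread between these libraries. Scripts were tested on simulated data. Tools were matplotlib 3.10.9, pysam 0.24.0, samtools 1.23.1, pandas 2.3.3, numpy 2.4.6, scipy 1.17.1 and Python 3.11.15.

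Both states carry replicate numbers 1, 2 and 4, and no source used here ties a number to one culture in both states, so libraries were not paired. Alternatives were q of 0.01, lists of equal length (59792 peaks), the strongest 20000 peaks, flanks of 0 or 50 kb, 50% cover of a region, motifs within 50 bp, promoters of 1 kb, each library left out and the replicate block.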

Additional observations from a re-analysis of the deposited data

How the results depend on the processing

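Lists cut to equal length gave 5 PROLIF-only and 0 DIFF-only regions in the member windows, 2 of the 5 with the AP-1 motif, and turned the difference in peaks (PROLIF minus DIFF) to 3.33 in all windows, 0.333 at *Mmp14* and 1.00 at *Spp1*. Only the strongest 20000 peaks of each list left 1 PROLIF-only region (the *Cd44* start site), 0 DIFF-only regions, 6 regions in all 6 libraries and 0 members with a promoter peak in all 6, with differences in peaks of 2.00 in all windows, 0.333 at *Mmp14*, -0.333 at *Plaur* and 1.33 at *Cd44*; both settings keep fewer peaks. Without flanks there were 1 PROLIF-only region and 7 regions in all 6 libraries, with differences of -0.667 peaks at *Fbln2* and 0.667 at *Spp1*. With flanks of 50 kb there were 2 DIFF-only regions, 34 in all 6 libraries and a difference of 0.333 at *Spp1*. Asking for 50% cover left 10 regions in all 6 libraries and 2 PROLIF-only regions, 1 of them with the AP-1 motif, and ended the calls of the *Spp1* start site, the *Fbln2* downstream region and the *Fbln2* intronic DIFF-only region, with another *Fbln2* intronic region DIFF-only instead. A replicate block, which asks for the same direction in at least 2 of 3 same-numbered pairs and the opposite in none, gave 6 PROLIF-only regions, 2 of them with the AP-1 motif, along with 6 DIFF-only ones, and an exact sign-flip p of 0.25 at *Cd44*, the smallest possible. Whether equal numbers mark such pairs could not be settled with 3 libraries per state. Over 39088 autosomal regions, percentile deviations correlated at 0.0549, 0.153 and 0.0123 within a number and at -0.112 to 0.0614 across numbers. In replicate 2 alone did both libraries correlate best with their own number. The paper describes paired profiling of the same cultures, which may refer to RNA-seq and ATAC-seq.

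With 1 library left out in turn, PROLIF-only regions ranged from 3 to 5, DIFF-only regions from 1 to 4, PROLIF-only regions with the AP-1 motif from 0 to 1, and the difference in peaks from -7.67 to 1.83 in all windows and from -0.5 to 2.83 at *Fbln2*. For the promoter percentiles, whose alternatives were chosen after the data were seen, leaving out a library moved the difference from -6.59 to 2.44 at *Mmp9*, from -8.89 to 6.92 at *Mmp14* and from -8.54 to 6.09 at *Plau*, and lists of equal length gave 2.96 at *Mmp9* and 2.91 at *Plau*. The *Cd44* difference stayed positive throughout, from 19.4 to 23.2 points with 1 library left out. The cause of these turns was not tested. A region missing from a list may be under the threshold of a shallower library, and 3 libraries per state cannot give an exact p below 0.1.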
